A study of Mus musculus with 5 samples.

Results

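The 10 genes described here encode proteins of cytokinesis and of the mitotic spindle, namely *Ect2*, *Anln*, *Cit*, *Prc1*, *Racgap1*, *Cep55*, *Aspm*, *Nusap1*, *Depdc1a*, and *Depdc1b*. They were taken by gene symbol from a table of 20224 genes, and all 10 were among the 15032 genes that passed the filter on low counts. The set was chosen by function, but with the log2 fold changes between genotypes in these libraries already known, so that difference is described for these genes without a test. The table holds bulk RNA sequencing counts of sympathetic neurons sorted from mouse embryos at E14.5, from 2 control samples, numbered 5 and 6, and 3 *Hif1aCKO* samples, numbered 3, 4, and 5. Control neurons came from embryos with the genotype *Hif1a* loxP/+; *Isl1Cre*; tdTomatoAi14, and *Hif1aCKO* neurons from *Hif1a* loxP/loxP; *Isl1Cre*; tdTomatoAi14 embryos, and both genotypes carried *Prph-eGFP*. Both groups therefore had Cre from 1 *Isl1* allele, and the controls also had 1 floxed *Hif1a* allele. Cre was driven by *Isl1*, which is active in several neuron types, and sorting kept cells positive for both eGFP under the peripherin promoter and tdTomato. Each library pooled 100 sorted cells of 1 biological sample, and the pregnancies were not diabetic.

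Cytokinesis separates the daughter cells at the end of mitosis. Antiparallel microtubules between the separating chromosomes form the central spindle, which Prc1 bundles and to which the centralspindlin complex of Racgap1 and Kif23 binds. Racgap1 recruits Ect2, an exchange factor that activates RhoA beneath the membrane, and active RhoA drives the assembly of an actin and myosin ring in which anillin (Anln) and citron kinase (Cit) are scaffolds. The ring closes onto the midbody, where Cep55 recruits the ESCRT machinery that cuts the last bridge. Aspm holds microtubules at the spindle poles, and Nusap1 bundles microtubules around chromosomes. Depdc1a and Depdc1b are related proteins that share a DEP domain and a RhoGAP-like domain. These genes are transcribed mainly in cycling cells, and sympathetic neuroblasts of the embryo go on dividing after they have begun to express neuronal genes.

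Promoter sequences are shown because genes of late mitosis often share a short element near the start of transcription, the cell cycle genes homology region, whose core is TTTGAA, together with CCAAT boxes. RefSeq windows on GRCm38.p6 from 250 bases before to 50 bases after the start were matched by symbol for 9 of the 10 genes, with *Depdc1b* not matched. The stretches below run from 100 bases before the start to 30 bases after it, 5′ to 3′ on the strand of the gene, and for *Ect2* and *Cep55* they belong to the second start in RefSeq. Relative to the first start of *Ect2*, TTTGAA lay at -114 to -109 and at 40 to 45, outside such a stretch. The stretch of *Cit*, which held neither TTTGAA nor CCAAT, is not printed. Capitals mark TTTGAA and CCAAT on either strand, so that TTCAAA and ATTGG are their reverse complements.
Ect2 (chr3:27153825-27153954, minus strand): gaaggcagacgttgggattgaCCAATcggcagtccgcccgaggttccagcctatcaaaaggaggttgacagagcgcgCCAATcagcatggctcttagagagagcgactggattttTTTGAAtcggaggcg
Anln (chr9:22389177-22389306, minus strand): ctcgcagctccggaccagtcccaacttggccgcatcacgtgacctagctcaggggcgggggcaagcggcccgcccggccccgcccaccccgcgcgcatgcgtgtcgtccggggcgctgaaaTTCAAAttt
Prc1 (chr7:80294351-80294480, plus strand): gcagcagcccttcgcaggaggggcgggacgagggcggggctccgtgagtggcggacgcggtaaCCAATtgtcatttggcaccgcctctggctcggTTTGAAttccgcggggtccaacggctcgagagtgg
Racgap1 (chr15:99651627-99651756, minus strand): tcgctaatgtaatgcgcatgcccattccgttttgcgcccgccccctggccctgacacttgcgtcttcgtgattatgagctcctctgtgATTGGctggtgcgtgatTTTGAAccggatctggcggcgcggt
Cep55 (chr19:38054941-38055070, plus strand): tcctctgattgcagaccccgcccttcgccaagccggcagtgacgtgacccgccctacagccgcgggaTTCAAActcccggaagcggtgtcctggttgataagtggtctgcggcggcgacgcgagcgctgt
Aspm (chr1:139454673-139454802, plus strand): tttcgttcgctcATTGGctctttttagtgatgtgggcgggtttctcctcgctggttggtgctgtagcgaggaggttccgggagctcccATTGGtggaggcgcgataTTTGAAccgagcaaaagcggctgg
Depdc1a (chr3:159495333-159495462, plus strand): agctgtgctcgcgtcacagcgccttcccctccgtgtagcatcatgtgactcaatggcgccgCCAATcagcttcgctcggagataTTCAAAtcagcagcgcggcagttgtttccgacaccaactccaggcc
Nusap1 (chr2:119618198-119618327, plus strand): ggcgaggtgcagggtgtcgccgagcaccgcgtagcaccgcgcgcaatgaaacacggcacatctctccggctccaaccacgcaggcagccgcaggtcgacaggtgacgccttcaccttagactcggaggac

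TTTGAA was found in the windows of 7 of the 9 genes, and each of the 7 held a match between 50 bases before and 50 bases after the start. Of the 10322 tested genes with a window, counting the first start listed, 11.6% held TTTGAA anywhere and 2.99% held it within those last 100 bases. *Anln* held a second, forward match from 29 to 34 bases after the start, and *Ect2* held another farther upstream. CCAAT lay in the last 100 bases for 5 of the 9 genes, against 15.5% of tested genes, and these were *Ect2*, *Prc1*, *Racgap1*, *Aspm*, and *Depdc1a*. The windows of *Cit* and *Nusap1* held neither motif. The E2F-type sequences TTTGGCGC and TTTCGCGC were found in 0 of the 9 windows and in 1.58% of those of tested genes. The core of the hypoxia response element, searched as ACGTG or GCGTG, was found in 6 of the 9 windows and in 63.5% of those of tested genes. All motifs were searched on both strands, and such matches describe letters in the window and not binding.

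The libraries held between 8254211 and 9700887 counts. The table sums counts over all exons of a gene, whereas only exon 2 of *Hif1a* is floxed, so the normalized counts of *Hif1a* do not check the deletion. They were 2082 in control replicate 5, 1581 in control replicate 6, and 2741, 1753, and 2130 in the *Hif1aCKO* libraries, in the order of their numbers. Counts of *Xist* and *Ddx3y* showed that control replicate 5 and *Hif1aCKO* replicate 3 came from female embryos and the other 3 libraries from male embryos. Markers of sympathetic neurons were abundant in every library. Their summed normalized counts over 14 genes were 104261 and 126039 in control and between 90255 and 93733 in *Hif1aCKO* libraries. Of the 14, 7 had an unadjusted p-value under 0.05 in edgeR's quasi-likelihood test, against 7.67% of all genes tested. *Isl1* had 12553 and 13991 normalized counts in control and 8615, 7779, and 8703 in *Hif1aCKO* libraries. *Prph* had 4474 and 5954 in control and 6527, 5911, and 4960 in *Hif1aCKO* libraries. Of the 9 markers of Schwann cell precursors 6 were in the table, and their sum was at most 56.1 in 4 libraries and 1205 in *Hif1aCKO* replicate 3, where *Fabp7* alone had 991 normalized counts. The sums were 59.3 and 121 in control and 12.6 to 65.7 in *Hif1aCKO* libraries for the 4 chromaffin cell markers. For sensory neurons, 5 markers of 9 symbols searched were in the table, with sums of 695 and 706 in control and 550 to 954 in *Hif1aCKO* libraries. Most of the sensory neuron counts were of *Prrxl1*, with a mean of 659 over the 5 libraries. The 2 motor neuron markers of 5 in the table, *Chat* and *Slc18a3*, gave 664 and 887 in control and 297 to 536 in *Hif1aCKO* libraries. With *Mnx1*, *Olig2*, and *Lhx3* not in the table, these sums do not identify motor neurons. Markers of mesenchyme (5 of 9 in the table), endothelium (2 of 6), erythroid cells (1 of 6), and immune cells (1 of 5) had sums of at most 26.2, 37.9, 30.9, and 112 in any library, and the immune marker, *Csf1r*, gave 32.2 and 62.9 in control and 83.5 to 112 in *Hif1aCKO* libraries. The part that these differences in markers may have in the results was not tested. In bulk samples, more cells in division and more RNA per dividing cell cannot be told apart.

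Of the 10 genes, 9 had a higher mean in *Hif1aCKO* than in control neurons. The log2 fold changes ran from -0.03 for *Cit* to 1.43 for *Depdc1b*, with a median of 0.52, while the median of all genes tested was 0.012. For 5 genes, *Ect2*, *Cep55*, *Aspm*, *Nusap1*, and *Depdc1b*, each of the 3 *Hif1aCKO* values was higher than the higher control value, and 12.8% of all genes tested had this pattern. Separate groups in either direction were found for the same 5 of the 10 genes and for 25.7% of all genes tested. The mean normalized counts of these 5 genes in *Hif1aCKO* neurons were from 1.58 to 2.69 times those in control neurons. The groups overlapped for the other 5 genes, *Anln*, *Cit*, *Prc1*, *Racgap1*, and *Depdc1a*, whose ratios ran from 0.978 to 1.31. The thresholds for calling a gene were passed by *Ect2*, *Nusap1*, and *Depdc1b* with DESeq2, which called 0.388% of the genes it tested and 0.194% as higher in *Hif1aCKO* neurons, and by 0% of genes with edgeR. These calls use the contrast with which the set was chosen, and nothing is read from them.

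**Figure D1:**
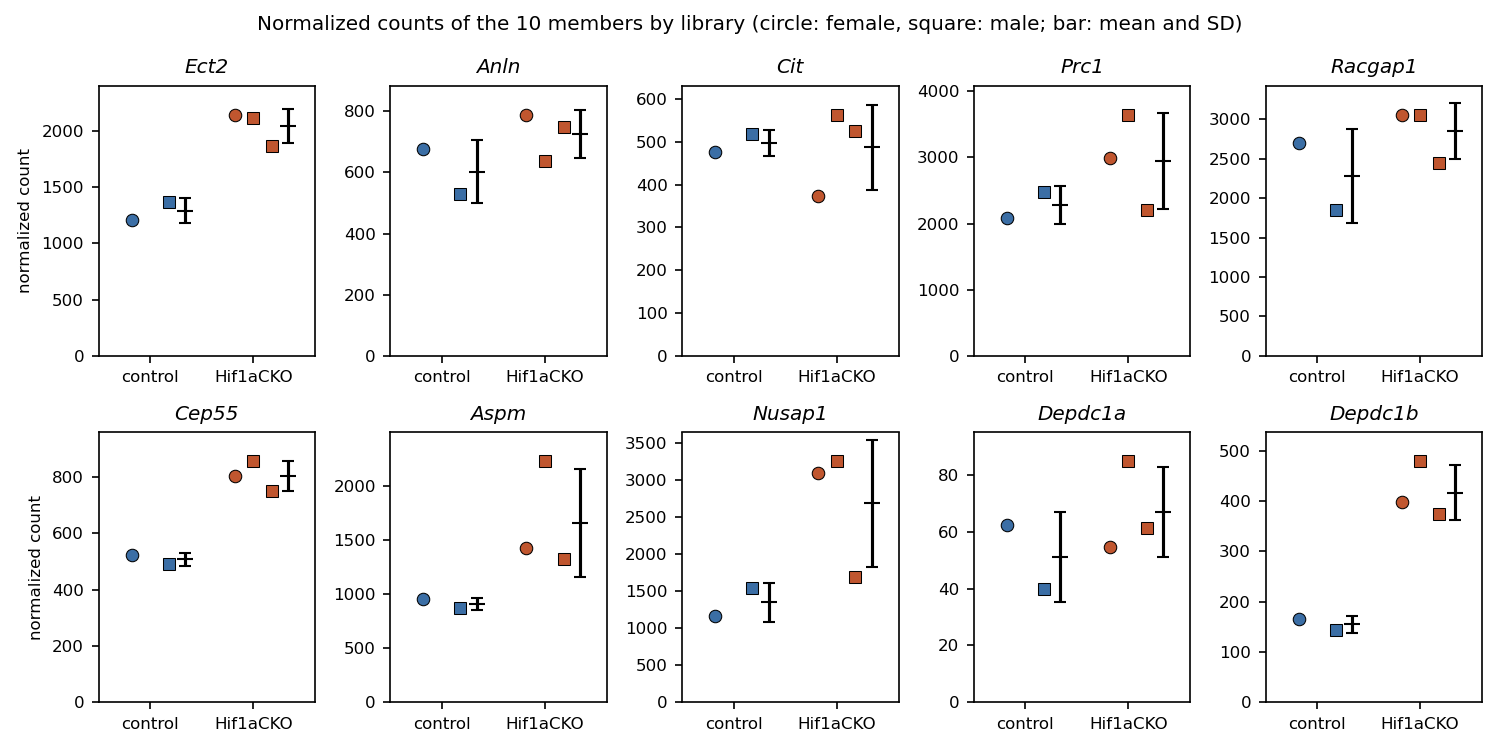
Normalized count (vertical axis) of each of the 10 genes in every library, with control in blue and *Hif1aCKO* in orange, circles for female and squares for male embryos, and bars for the mean and SD of each group. *Hif1aCKO* points lie above both control points for *Ect2*, *Cep55*, *Aspm*, *Nusap1*, and *Depdc1b*, and the groups overlap in the other 5 panels.

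Of the 3 genes of the furrow and the contractile ring among the 10, *Ect2* had the largest difference between genotypes. *Ect2* (ENSMUSG00000027699, chromosome 3, 27097222 to 27153878 on GRCm38) had 1211 normalized counts in control replicate 5 and 1370 in control replicate 6, against 2140, 2114, and 1867 in the *Hif1aCKO* libraries (3, 4, and 5, the order kept from here on). The lowest *Hif1aCKO* library was 1.36 times the higher control library, and the means were 1291 ± 112 (SD, n = 2) and 2040 ± 151 (SD, n = 3). The log2 fold change was 0.66 with a standard error of 0.15. *Anln* (ENSMUSG00000036777, chromosome 9, 22332012 to 22389188) had 675 and 529 normalized counts in control and 788, 637, and 750 in *Hif1aCKO* libraries. *Hif1aCKO* replicate 4 lay below control replicate 5, and the log2 fold change of 0.27 (standard error 0.19) was 0.098 without control replicate 6 and 0.45 without control replicate 5. *Cit* encodes citron kinase, which acts at the midbody, and also a shorter neuronal form without the kinase domain, and counts per gene do not separate these forms. *Cit* (ENSMUSG00000029516, chromosome 5, 115845278 to 116008947) had 476 and 519 normalized counts in control and 373, 563, and 524 in *Hif1aCKO* libraries, so that *Hif1aCKO* libraries were both the lowest and the highest. Its log2 fold change was -0.03 with a standard error of 0.23, with a range from -0.15 to 0.13 over fits that each omitted 1 library.

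The central spindle genes were among the most abundant of the 10 and showed smaller differences. *Prc1* (ENSMUSG00000038943, chromosome 7, 80294450 to 80316259) had 2081 and 2479 normalized counts in control and 2991, 3640, and 2198 in *Hif1aCKO* libraries. *Hif1aCKO* replicate 5 lay between the control libraries, and the log2 fold change was 0.37 (standard error 0.21), with values of 0.19 without *Hif1aCKO* replicate 4 and 0.54 without *Hif1aCKO* replicate 5. *Prc1* shares 11.1% of its exonic bases with *Rccd1* on the opposite strand, and no source used here states a stranded kit or count, so reads from that stretch may not be told apart. The mean of *Rccd1* was 832 ± 38.4 (SD, n = 2) in control against 1196 ± 322 (SD, n = 3) in *Hif1aCKO* libraries. *Racgap1* (ENSMUSG00000023015, chromosome 15, 99620496 to 99651656) had 2697 and 1855 normalized counts in control and 3054, 3055, and 2447 in *Hif1aCKO* libraries. Its control libraries differed from each other by more than the *Hif1aCKO* libraries did, and control replicate 5 lay above *Hif1aCKO* replicate 5. The log2 fold change of 0.33 (standard error 0.19) depended on the controls, since it was 0.62 without control replicate 5 and 0.075 without control replicate 6.

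*Cep55*, the midbody protein that recruits the ESCRT machinery, showed the smallest SD relative to its mean, in both groups, among the genes whose groups did not overlap. *Cep55* (ENSMUSG00000024989, chromosome 19, 38055011 to 38074423) had 524 and 491 normalized counts in control and 802, 855, and 751 in *Hif1aCKO* libraries. The means were 507 ± 23.6 (SD, n = 2) and 803 ± 52.0 (SD, n = 3), and the lowest *Hif1aCKO* library was 1.43 times the higher control library. The log2 fold change of 0.66 (standard error 0.17) ranged from 0.61 to 0.71 over fits that each omitted 1 library.

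The spindle genes *Aspm* and *Nusap1* had larger mean differences and a wider spread among the *Hif1aCKO* libraries. *Aspm* (ENSMUSG00000033952, chromosome 1, 139454772 to 139494091) had 953 and 875 normalized counts in control and 1428, 2229, and 1322 in *Hif1aCKO* libraries. *Hif1aCKO* replicate 4 stood well above the other 2, and the log2 fold change was 0.86 (standard error 0.24) with it and 0.59 without it, the lowest value over fits that each omitted 1 library. *Nusap1* (ENSMUSG00000027306, chromosome 2, 119618298 to 119651244) had 1163 and 1540 normalized counts in control and 3107, 3258, and 1702 in *Hif1aCKO* libraries. *Hif1aCKO* replicate 5 was only 1.11 times control replicate 6, whereas replicates 3 and 4 lay far above both controls. The log2 fold change was 0.99 (standard error 0.28), with a range from 0.80 without control replicate 5 to 1.24 without *Hif1aCKO* replicate 5. *Nusap1* shares 4.24% of its exonic bases with *Oip5* on the opposite strand, and the mean of *Oip5* was 211 ± 127 (SD, n = 2) in control against 189 ± 79.4 (SD, n = 3) in *Hif1aCKO* libraries.

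The 2 DEP domain genes differed from each other. *Depdc1b* (ENSMUSG00000021697, chromosome 13, 108316332 to 108407782) had 166 and 143 normalized counts in control and 398, 479, and 374 in *Hif1aCKO* libraries. It had the largest ratio of the 10 genes, 2.69, and its lowest *Hif1aCKO* library was 2.25 times the higher control library. The log2 fold change was 1.43 with a standard error of 0.25. *Depdc1a* (ENSMUSG00000028175, chromosome 3, 159495433 to 159529955) had the fewest reads, with 60 and 43 raw counts in control and 51, 85, and 63 in *Hif1aCKO* libraries. The exact Poisson 95% intervals of these raw counts cover counting error only. The interval ran from 45.8 to 77.2 for the 60 counts of control replicate 5. It ran from 38.0 to 67.1 for the 51 counts of *Hif1aCKO* replicate 3, so this pair of libraries was not distinguishable at this depth. The intervals of control replicate 6 (31.1 to 57.9) and *Hif1aCKO* replicate 4 (67.9 to 105) did not overlap. Its log2 fold change was 0.39 with a standard error of 0.49, with a range from 0.094 to 0.74 over fits that each omitted 1 library.

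**Figure D2:**
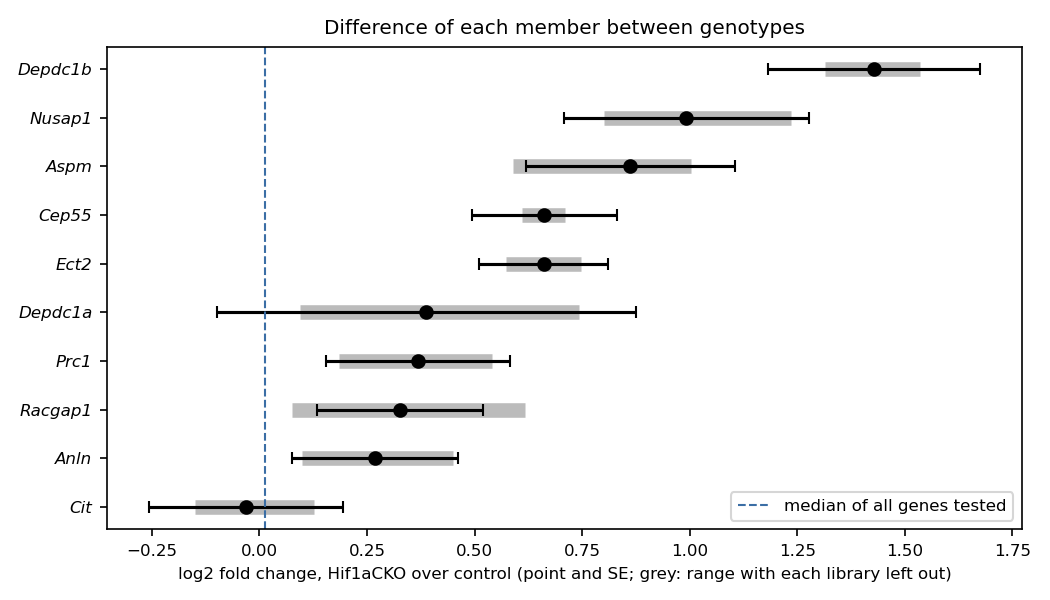
Log2 fold change of each gene between *Hif1aCKO* and control neurons (horizontal axis), with points and bars for the estimate and its standard error from edgeR, grey bands for the range over fits that each omitted 1 library, and a dashed line for the median of all genes tested, 0.012. *Depdc1b* lies farthest to the right at 1.43, *Cit* lies at -0.03, and the bands of *Depdc1a* (0.094 to 0.74) and *Racgap1* (0.075 to 0.62) are the widest.

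The 10 genes were also summed in each library. Their raw counts summed to 9628 and 10632 in the control libraries, against 14146, 16983, and 12355 in the *Hif1aCKO* libraries. Divided by the totals, this was 1130 and 1096 CPM for control and 1714, 1997, and 1393 CPM for *Hif1aCKO*. *Hif1aCKO* replicate 4 held the highest normalized count of 8 genes and *Hif1aCKO* replicate 3 that of *Ect2* and *Anln*, while the lowest was in control replicate 6 for 6 genes, in control replicate 5 for 3, and in *Hif1aCKO* replicate 3 for *Cit*. On the log2 scale, the 10 genes deviated from their own means by -0.30 and -0.40 on average in the control libraries, and by 0.21, 0.43, and 0.05 in the *Hif1aCKO* libraries. The median log2 fold change of the 10 genes was 0.57 without *Hif1aCKO* replicate 3, the library with *Fabp7*.

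Values within each sex were compared as well. The log2 ratio of the female *Hif1aCKO* library to the female control was 0.82 for *Ect2*, 0.61 for *Cep55*, 0.58 for *Aspm*, 1.42 for *Nusap1*, and 1.26 for *Depdc1b*. The log2 ratio of the mean of the 2 male *Hif1aCKO* libraries to the male control was 0.54, 0.71, 1.02, 0.69, and 1.57 for the same genes. These ratios had to be positive, since the genes were grouped by having every *Hif1aCKO* value above both controls. Among the other 5 genes, the female and male log2 ratios were 0.22 and 0.39 for *Anln*, 0.52 and 0.24 for *Prc1*, and 0.18 and 0.57 for *Racgap1*. Those of *Cit* were -0.35 and 0.07 and those of *Depdc1a* -0.19 and 0.87, so that both genes were lower in the female *Hif1aCKO* library than in the female control. Each sex has 1 control library, so these ratios carry no test, and with sex as a term in the edgeR fit the median of the 10 genes was 0.53.

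Levels were compared between genes as the mean normalized count over the 5 libraries per kb of exonic sequence. *Nusap1* had the highest level, 531 per kb, followed by *Racgap1* at 370.3, *Prc1* at 326, *Ect2* at 323, *Cep55* at 236, *Aspm* at 117, *Depdc1b* at 93.2, *Anln* at 74.6, *Cit* at 29.9, and *Depdc1a* at 18.2 per kb. The upper end of this order was not resolved, since *Nusap1* exceeded *Racgap1* in 4 of the 5 libraries, *Racgap1* exceeded *Prc1* in 3, and *Prc1* exceeded *Ect2* in 3. *Depdc1b* exceeded *Anln* in the 3 *Hif1aCKO* libraries only. Each of the other neighbours in the order kept its place in all 5 libraries. Exonic length was the union over all annotated transcripts, which lowers the level of genes with many alternative or unspliced transcripts, such as *Cit* with 19 annotated transcripts.

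**Figure D3:**
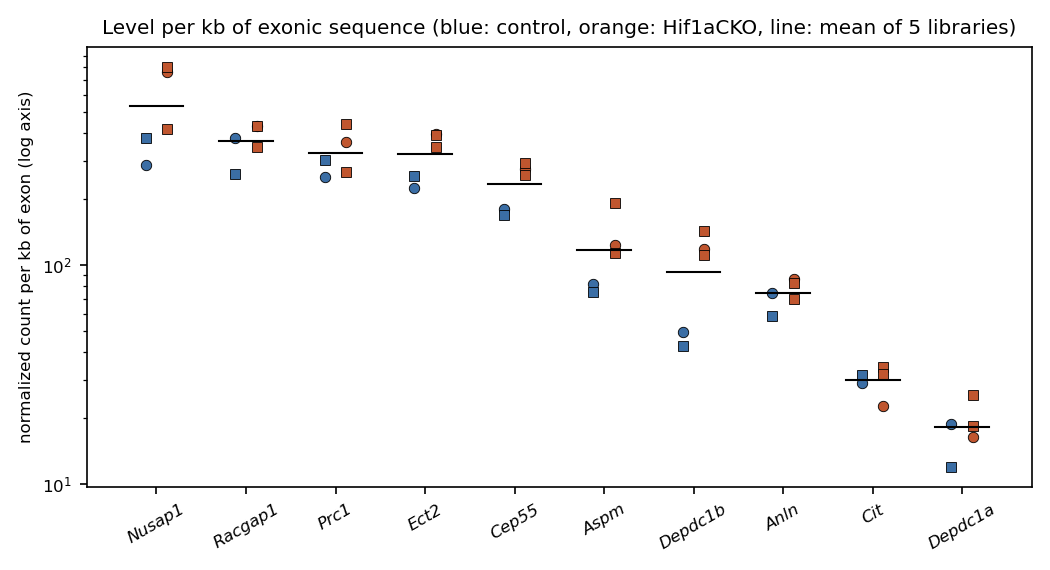
Normalized count per kb of exonic sequence (vertical log axis) of each gene in every library, ordered by the mean of 5 libraries (line), with control in blue and *Hif1aCKO* in orange, and circles for female and squares for male embryos. The levels run from 531 per kb for *Nusap1* to 18.2 per kb for *Depdc1a*, and the 4 genes on the left overlap.

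Other genes of cell division were described from 5 lists of 107 genes in all, which were written with earlier results of these data known. All 107 were tested with edgeR's quasi-likelihood test over all 15032 genes, and 0 passed in either direction. An unadjusted p-value under 0.05 was reached by 20 of these genes, 19 higher and 1 lower in *Hif1aCKO* neurons, and by 7.67% of all genes tested. DESeq2 called 4 of the 107 genes, *Kif23*, *Incenp*, *Plk1*, and *Kif20b*, all higher in *Hif1aCKO* neurons. Of all genes it tested, DESeq2 called 0.388%, and 0.194% as higher in *Hif1aCKO* neurons. Because the lists were written with earlier results known, nothing is read from the calls within them.

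The list of the midzone and the chromosomal passenger complex stood closest to the 10 genes. All 11 of its genes had a positive log2 fold change, with a median of 0.42, and 6 had an unadjusted p-value under 0.05 in edgeR, with 0 called after adjustment over all genes and 3 called by DESeq2. The groups were separate for 7 of the 11, each higher in *Hif1aCKO* neurons, against 12.8% of all genes tested. The median was 0.29 without *Hif1aCKO* replicate 4. *Kif23*, the motor subunit that pairs with Racgap1 in centralspindlin, had 872 and 557 normalized counts in control and 1377, 1564, and 1473 in *Hif1aCKO* libraries, a log2 fold change of 1.04 ± 0.22 (SE). *Racgap1* itself differed by 0.33. *Incenp*, the scaffold of the passenger complex, went from a mean of 379 ± 52.0 (SD, n = 2) in control to 688 ± 66.3 (SD, n = 3), which is 0.86 on the log2 scale. *Birc5* and *Cdca8*, 2 other subunits of that complex, had log2 fold changes of 0.55 and 0.48, and *Aurkb*, its kinase, had 0.32 with overlapping groups. *Plk1*, the kinase that prepares Racgap1 to bind Ect2, had 750 and 832 normalized counts in control and 1531, 1615, and 1386 in *Hif1aCKO* libraries, and its log2 fold change was 0.93 (standard error 0.16). The authors also ran qRT-PCR on dissected sympathetic chains at E14.5, which were not sorted cells. There they reported no effect of *Hif1a* deletion on *Plk1*, and higher *Kif23* and *Mki67* in *Hif1aCKO*. *Kif4*, the motor that Prc1 brings to the midzone, had a log2 fold change of 0.17 ± 0.18 (SE), and *Kif20a* one of 0.32. Of the abundant genes in this list, *Cdk1* had a log2 fold change of 0.42 and *Clasp2* one of 0.23.

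Genes of the furrow and the contractile ring, many of which also serve cells outside division, had a smaller median log2 fold change than the midzone list. Of 24 genes 15 had a positive and 9 a negative log2 fold change, with a median of 0.09, and edgeR called 0 and DESeq2 0, with 3 at an unadjusted p-value under 0.05. The median was 0.15 without *Hif1aCKO* replicate 4 and 0.039 without *Hif1aCKO* replicate 5. All *Hif1aCKO* values lay above both controls for 8 of the 24 genes and below them for 2, where 12.8% and 12.9% of all genes tested did so. *Rhoa*, the target of Ect2, had 874 and 945 normalized counts in control and 1156, 737, and 917 in *Hif1aCKO* libraries, with a log2 fold change of 0.04 ± 0.21 (SE). The nonmuscle myosin genes *Myh10* and *Myh9* had log2 fold changes of -0.06 and 0.54, and *Myh9* had at most 120 normalized counts. The kinases of the ring, *Rock1* and *Rock2*, had log2 fold changes of 0.10 and 0.61, and the formin gene *Diaph3* had 0.49. *Sept7*, whose protein Anln binds with other septins, had a log2 fold change of -0.19. The most abundant genes of the list, *Cfl1*, *Cdc42*, and *Pfn1*, had log2 fold changes of -0.09, -0.24, and 0.08.

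The list of the midbody and abscission had a median on the other side of 0. Of 21 genes 7 had a positive and 14 a negative log2 fold change, with a median of -0.16, and 2 had an unadjusted p-value under 0.05, with 0 called by edgeR and 1 by DESeq2. The median was -0.023 without control replicate 6 and -0.057 without *Hif1aCKO* replicate 4. The groups were separate for 3 genes higher (14.3%) and 5 lower (23.8%) in *Hif1aCKO* neurons, against 12.8% and 12.9% of all genes tested. The binding partners of Cep55 had log2 fold changes below 0, at -0.46 (standard error 0.21) for *Pdcd6ip*, which encodes Alix, and -0.06 (standard error 0.15) for *Tsg101*. The ESCRT-III genes *Chmp4b* and *Chmp4c* had log2 fold changes of 1.25 (standard error 0.66) and -0.36 (standard error 0.34), and *Chmp4b* had at most 55.6 normalized counts. *Vps4a*, which encodes the ATPase that takes ESCRT-III apart, and *Ist1*, an abundant gene of the list, had log2 fold changes of -0.41 and -0.20. The mitotic kinesin genes of this list, *Kif20b* and *Kif14*, had log2 fold changes of 0.78 (standard error 0.20) and 0.66 (standard error 0.37), and the protein of *Kif14* binds both Prc1 and citron kinase.

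Genes of spindle assembly and of the spindle pole had a median log2 fold change of 0.33, with 30 of 36 positive and 6 negative, and 9 had an unadjusted p-value under 0.05, while edgeR and DESeq2 called 0. Without control replicate 6 the median was 0.18. The groups were separate for 15 genes higher (41.7%) and 1 lower (2.78%) in *Hif1aCKO* neurons, against 12.8% and 12.9% of all genes tested. *Tpx2*, which activates Aurora A on the spindle, had a log2 fold change of 0.57 ± 0.26 (SE). *Wdr62* and *Cdk5rap2*, which act with Aspm at the centrosome, had log2 fold changes of 0.89 (standard error 0.64) and 0.11 (standard error 0.27), and those of *Numa1*, *Kif11*, and *Ckap5* were 0.32, 0.17, and -0.08. Regulators of late cell cycle transcription had a median log2 fold change of 0.015, with 8 of 15 positive and 7 negative and 0 at an unadjusted p-value under 0.05 or called by either tool. That median was -0.013 without *Hif1aCKO* replicate 5 and 0.084 without *Hif1aCKO* replicate 4. The groups were separate for 4 genes of this list higher (26.7%) and 1 lower (6.67%) in *Hif1aCKO* neurons. In this list *Foxm1* and *Mybl2*, activators of late mitotic genes, had log2 fold changes of 0.77 (standard error 0.39) and 0.68 (standard error 0.36). *Lin54*, whose protein binds the TTTGAA core, had 0.44 (standard error 0.41). These were the highest values of the list, and the lowest was -0.64 (standard error 0.38) for *Lin52*. *Lin54* had 121 and 131 normalized counts in control and 261, 129, and 121 in *Hif1aCKO* libraries. Its higher mean thus came from *Hif1aCKO* replicate 3. The abundant genes *Rbbp4*, *Nfyb*, and *Tfdp1* had -0.03, 0.27, and 0.26. For comparison, *Mki67*, a marker of cycling cells, had a mean of 1909 ± 220.3 (SD, n = 2) in control against 3271 ± 345 (SD, n = 3) in *Hif1aCKO* libraries.

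**Figure D4:**
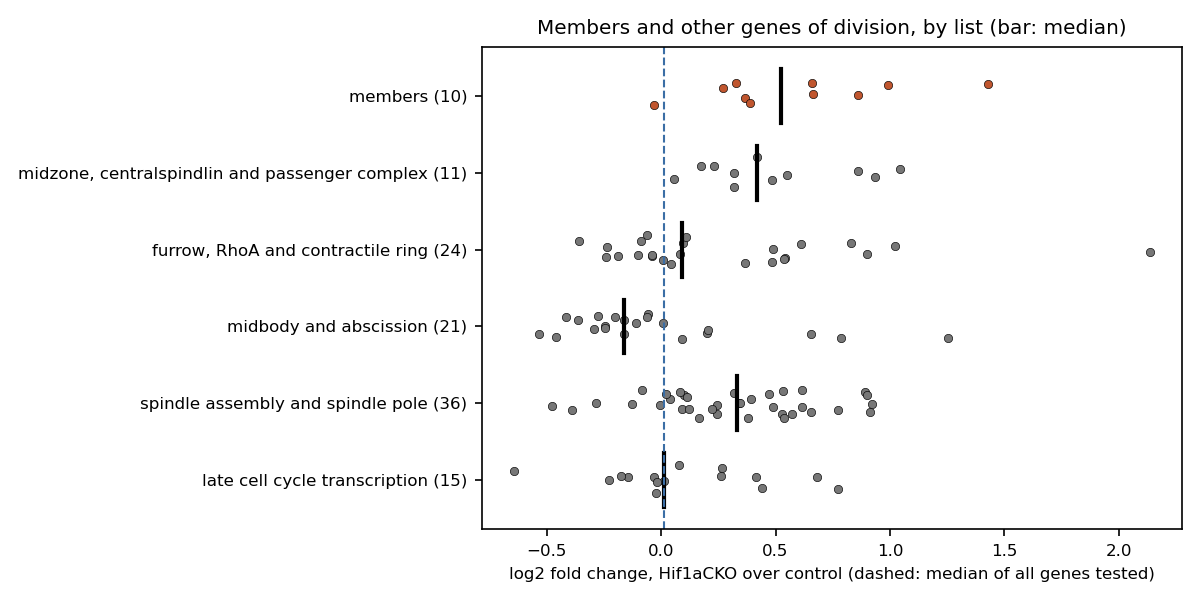
Log2 fold change between *Hif1aCKO* and control neurons (horizontal axis) of the 10 genes (orange) and of the 107 genes in 5 other lists (grey), with a bar for each median and a dashed line for the median of all genes tested. The medians are 0.52 for the 10 genes, 0.42 for the midzone, 0.09 for the furrow, -0.16 for abscission, 0.33 for the spindle, and 0.015 for late cell cycle transcription.

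The genes of the whole table whose pattern over the 5 libraries was most like the mean pattern of the 10 genes were found among 10829 other genes with a mean normalized count of at least 50. Likeness was the root mean square difference between log2 deviations from the mean. The smallest differences were 0.062 for *Kctd5*, 0.063 for *Cip2a*, 0.064 for *Insm2*, 0.065 for *Rexo1*, and 0.066 for *Cep295*. *Cip2a* encodes an inhibitor of the phosphatase PP2A, and *Cep295* a centriole protein. Of the 10 genes, *Cep55* lay nearest to their mean pattern, at 0.073, and *Depdc1b* and *Cit* farthest, at 0.41 and 0.38.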

How the data were processed

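Counts per gene of 5 libraries were used as deposited. The authors trimmed reads with cutadapt (version 1.18), removed ribosomal and vector reads with bowtie (version 1.2.2), mapped to GRCm38 with STAR (version 2.7.0c), and counted with Rsubread without multi-mapping reads. Tool versions are from the submitters' processing notes. The authors' kit and counting are not stated to keep strand. Names, positions, and exonic lengths came from GENCODE release M21 (GRCm38), which holds 20195 of 20224 identifiers.

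*Hif1aCKO* was compared with control by the quasi-likelihood test of edgeR (version 4.0.16, under R version 4.3.3) after filterByExpr and TMM scaling, and Benjamini-Hochberg adjustment covered all 15032 genes kept. Normalized counts were scaled by effective library size (total count and TMM factor) to the mean of the 5 libraries over genes kept. Calls needed an adjusted p-value under 0.05, an absolute log2 fold change above 0.3, and 50 or more normalized counts on average. Standard errors are the log2 fold change divided by the root of the F statistic. In all, 1153 genes had an unadjusted p-value under 0.05. The smallest p-value that exact permutation could give for 1 gene here is 0.1. The libraries are separate biological samples in the labels, which do not name litters.

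The members and lists were chosen with earlier results of these data known, and the motifs after the promoter windows were seen. Apart from *Lin52*, genes named from the lists are genes picked for what their proteins do, the 3 most abundant of each list, and genes called by DESeq2. The 5 genes of most similar pattern were named by rule, and *Lin52*, *Rccd1*, *Oip5*, and *Fabp7* after their values were seen. Other scalings (RLE and upper quartile), DESeq2 (version 1.42.0), edgeR's likelihood ratio test, limma-voom (limma version 3.58.1), other filters and thresholds, a term for sex, and fits without each library served as alternatives. Tables came from Python (version 3.11.15) with pandas (version 2.3.3) and numpy (version 2.4.6), and plots from matplotlib (version 3.10.9).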

Additional observations from a re-analysis of the deposited data

Results flagged for a closer look

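For some genes every *Hif1aCKO* library of one sex lay above the control of that sex and every one of the other sex lay below it. The differences between the sexes were not tested, and each sex has 1 control library. *Cit* had a log2 ratio of -0.35 in the female and 0.0658 in the male libraries, and *Depdc1a* had -0.191 in the female and 0.865 in the male libraries. Among the other genes named, the female and male log2 ratios were 0.402 and -0.192 for *Rhoa*, -0.00151 and 0.769 for *Myh9*, 0.0757 and -0.362 for *Sept7*, and 0.111 and -0.166 for *Tsg101*. They were 0.0514 and -0.632 for *Chmp4c*, 0.00757 and -0.329 for *Ist1*, 0.0509 and -0.711 for *Vps4a*, and -0.42 and 0.828 for *Numa1*. They were -0.378 and 0.369 for *Cdk5rap2*, 1.11 and -0.0572 for *Lin54*, and -0.0657 and 0.0401 for *Rbbp4*. The overlapping gene *Oip5* had the widest difference of those listed, with -1.43 in the female and 0.909 in the male libraries.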

How the results depend on the processing

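No paired analysis was possible because the labels name neither litters nor pairs. The genotypes share replicate number 5, which the labels do not describe as a pair. The number of genes called was 0 with the quasi-likelihood test, 60 with DESeq2, and 40 with the likelihood ratio test, and 0 to 4 over fits that each omitted 1 library, where a lone control was taken to vary like the *Hif1aCKO* libraries and the 4 genes came without control replicate 5. Among the 107 list genes the counts were 4 with DESeq2 and 2 with the likelihood ratio test, and 0 under each of the other alternatives. The cause of these differences was not tested. The median of the 10 genes lay between 0.52 and 0.56 under the other settings and between 0.47 and 0.66 with each library left out. Of 120 single-gene values under the alternatives, 111 were above 0, and those below 0 were all of *Cit*, which lay above 0 under upper-quartile scaling and without control replicate 6 or *Hif1aCKO* replicate 3. The count of 5 genes with separate groups was also 5 under RLE and upper-quartile scaling. Leaving out 1 library can only keep or raise it, and gave 6 to 8, with 8 without control replicate 5, against 26.0% of all genes tested. It was 6 without control replicate 6, against 24.2% of all genes tested. Without *Hif1aCKO* replicates 3, 4, and 5 it was 6, 6, and 7, against 22.0%, 19.4%, and 18.5%. Depth limits *Depdc1a* most.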
